A study of Drosophila melanogaster with 4 samples.

Results

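JHDM1, also called KDM2, is a demethylase of histone H3 that carries a JmjC catalytic domain and a CXXC zinc finger, a fold that in mammalian relatives binds unmethylated CpG. In Drosophila it belongs to a complex with the Polycomb group proteins dRING and Posterior sex combs, which ubiquitylates histone H2A. Proteins of the Polycomb group are known both for compact binding at single elements and for domains that run over whole genes. Broad JHDM1 domains are taken here as the clusters of 5000 bases or more in the authors' combined list on X, on chromosome 4 and on the large autosomal arms 2L, 2R, 3L and 3R, together called the arms. A cluster is a region that the authors deposited as significantly enriched. There were 342 such domains among 11412 combined clusters on the arms, or 3.00%, and among 11598 clusters on all sequences. They covered 2.21 Mb, which was 9.48% of all bases under combined clusters on the arms and 1.84% of the arms.

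The samples were whole embryos of Drosophila melanogaster, wild type, strain Oregon-R, aged 14 to 16 h. Antibody Q2634 against JHDM1 was used in 2 chromatin immunoprecipitation (ChIP) samples, and 2 input samples of chromatin that was not precipitated belong to the same series. All samples share strain, genotype and stage, so the data hold no second condition and the comparison is that between the ChIP replicates and the combined list. Whether the replicates came from different collections of embryos is not in the labels, and their spread may then be only technical. The lists give positions and a score without read counts, and the depth of each sample is therefore unknown. The 2 replicate lists resembled each other in size, with 4719 and 4761 clusters on the arms, and neither held a cluster under 1301 bases. The combined list went down to 1001 bases, so some of its clusters were narrower than any in the replicate lists. Whole embryos hold many cell types. A domain bound from end to end in the same cells and neighbouring stretches bound in different cells cannot be told apart.

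Most broad domains of the combined list were not single broad clusters in the replicates. A cluster of 5000 bases or more in a replicate list occurred 43 times in replicate 1 and 47 times in replicate 2 on the arms. Of the 342 domains, 23 held such a wide cluster in both replicates, 43 in 1 replicate and 276 in neither. Because 182 domains were under 6000 bases, a nearly filled domain can still miss this limit. At 2R:8057659-8062671, of 5013 bases, replicate 1 had 1 cluster of 4987 bases, which counts as not wide. All 43 wide clusters of replicate 1 and 46 of the 47 of replicate 2 lay over a domain. The remaining wide cluster, at 3R:7772073-7777284, had 5212 bases and overlapped no domain. It is named because it was the only exception.

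Most domains were nevertheless marked by a cluster in both replicates. Of the 342 domains, 313 (91.5%) overlapped clusters of both by at least 1 base, against 27.8% of all combined clusters on the arms. This does not require that the clusters of the replicates overlap each other. At 2R:12466833-12472442, for example, each replicate had 1 cluster and they shared 0 bases. Replicate 1 alone had a cluster in 9 domains and replicate 2 alone in 16. The remaining 4 overlapped none, where 49.1% of all combined clusters overlapped none. Among the combined clusters of 3000 to under 5000 bases, the class nearest in width, 74.4% overlapped clusters of both replicates and 4.93% overlapped none. With only replicate clusters that scored above their list's median, 212 domains were found in both and 50 in neither. Against a single replicate, 13 domains lacked a cluster of replicate 2 and 20 one of replicate 1. The combined list comes from these same samples, and a wider region meets another more easily, so these shares are descriptions and no test applies. Clusters of replicate 1 covered 59.2% of the bases of a domain on average and those of replicate 2 covered 61.0%, a mean of 60.1% ± 1.31 (SD, n = 2). Single domains ranged from 0 to 100% in each replicate, with medians of 61.8% and 62.0%. Bases under clusters of both replicates made up 46.2% of all domain bases.

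The domains were sorted by how the replicates filled them. A domain was called continuous where, in each replicate, 1 cluster alone covered at least 50% of its bases. It was called joined where it was found in both replicates, was not continuous and overlapped 2 or more clusters of at least 1 replicate. It was called partly covered where it met 1 cluster in each replicate and at least 1 of these covered less than 50%. By this division 83 domains (24.3%) were continuous, 159 (46.5%) were joined and 71 (20.8%) were partly covered. The names are not strict. Of the 83 continuous domains, 56 held 1 cluster in each replicate and 27 held 2 or more in at least 1 replicate. A joined domain can be nearly filled by 1 cluster of a single replicate. An example is 3L:2583443-2590568, covered to 96.5% by 1 cluster of replicate 1. Among all combined clusters on the arms, 22.2% were continuous and 2.36% were joined. These shares count clusters found in 1 or neither replicate, which can be in neither class. Of the 3174 combined clusters found in both replicates, 2530 were continuous and 269 joined. Of the 313 domains found in both, 83 and 159 were. A narrow region has little room for several clusters of at least 1301 bases, so these shares depend on width. The order of the classes also depends on how small gaps are treated and on which replicate clusters are used. With only those that scored above their list's median, 78 domains were continuous and 58 were joined. With replicate clusters closer than 500 bases joined first, 117 domains were continuous and 104 were joined, and with a single cluster required over at least 80% of the bases, 17 were continuous. With replicate 2 alone 145 were continuous and 96 joined, and with replicate 1 alone 133 and 106. With 1 replicate the 50% is asked of that list only, so the continuous count cannot fall below 83. Splits seen only in the other replicate then no longer make a domain joined. The change of order with 1 replicate therefore follows largely from the definitions.

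**Figure D1:**
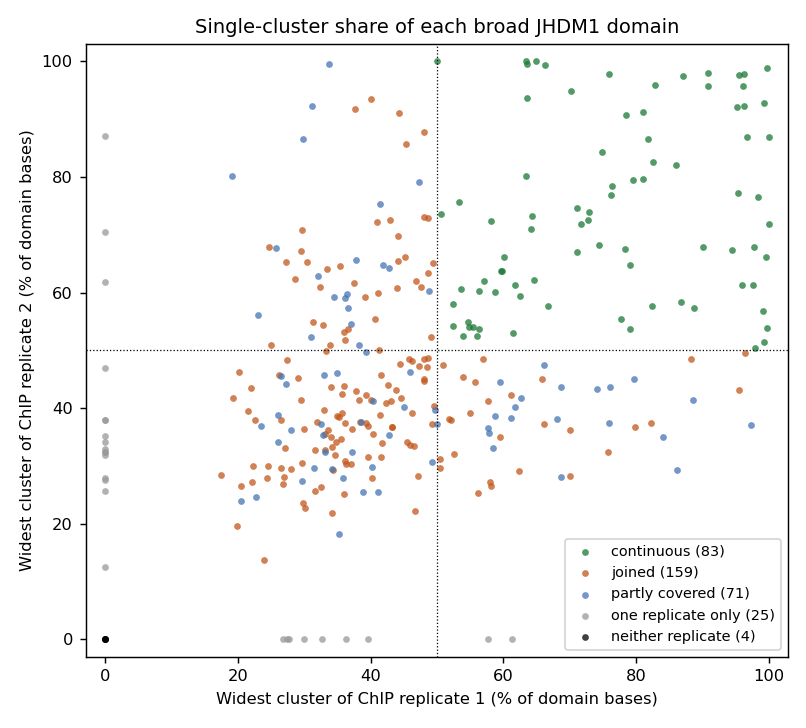
Each point is 1 of the 342 broad domains, placed by the share of its bases (%) under the widest single cluster of ChIP replicate 1 (x axis) and ChIP replicate 2 (y axis), with dotted lines at 50%. The 83 continuous domains lie above and to the right of both lines, and in 93 of the 159 joined domains the share is under 50% on both axes.

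Regions just below the width limit differed in class shares more than in mean cover. Of the 1359 combined clusters of 3000 to under 5000 bases, 46.6% were continuous, 8.09% were joined and 19.7% were partly covered. Their mean cover was 55.9% in replicate 1 and 58.3% in replicate 2, against 59.2% and 61.0% in the broad domains. None of these differences was tested. Within the broad domains the share of joined ones was higher in each wider class. It was 37.4% of the 182 domains under 6000 bases, 48.0% of the 102 from 6000 to under 7500, 69.6% of the 46 from 7500 to under 10000 and 83.3% of the 12 of 10000 bases or more. The share of continuous domains showed no such order, with 22.0%, 29.4%, 23.9% and 16.7%. A wider domain has more room for several clusters, so the rise in the joined share may be largely built into the definition. At the limit itself, the narrowest members were 2R:7507637-7512640 with 5004 bases, X:7620133-7625137 with 5005 bases and 2R:8057659-8062671 with 5013 bases. The widest clusters left out were 2R:18572913-18577906 with 4994 bases, 3L:16400785-16405775 with 4991 bases and 2L:6462996-6467983 with 4988 bases. Their combined scores were 0.432, 0.440 and 0.595 inside the limit and 0.941, 0.529 and 0.665 outside it.

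**Figure D2:**
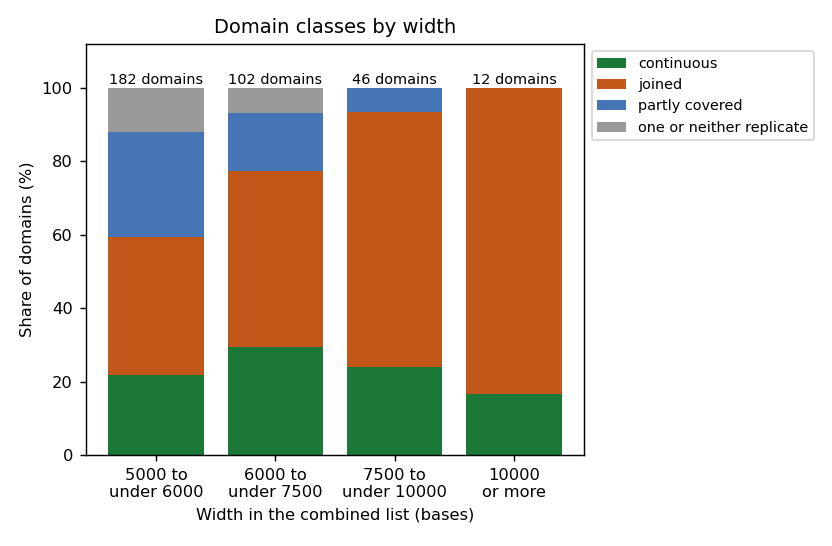
Stacked bars give the share of domains (%) in each class for 4 ranges of width in the combined list, with the number of domains above each bar. The joined share is 37.4% in the narrowest range and 83.3% in the widest.

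A few domains were single blocks in both replicates. In 17 of the 342, 1 cluster covered at least 80% of the bases in each replicate, and in 9 it covered at least 90%. The most evenly filled was 3R:2643985-2649785, of 5801 bases, where 1 cluster covered 99.8% in replicate 1 and 98.9% in replicate 2. Its edges in the replicates were 3R:2643996-2649790 and 3R:2644009-2649746, so both lists drew nearly the same outline. The domain 2R:15334674-15341009, of 6336 bases, was covered to 96.3% and 97.8% by 1 cluster each. At 3L:14747465-14754022, of 6558 bases, the shares were 95.5% and 97.7%. At 2R:15612135-15617808, of 5674 bases, they were 99.3% and 92.8%. These compact blocks differed widely in score, from a combined score of 0.665 at 2R:15334674-15341009 to 2.22 at 2R:15612135-15617808. The widest block was 3L:17952495-17967051, of 14557 bases, where the replicates shared 13604 uninterrupted bases, the longest such stretch in any domain. Its scores were 0.832 in replicate 1 and 0.991 in replicate 2. Over the domains, the highest cluster had median scores of 0.719 and 0.730, so both were above the median.

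The widest domain of all was continuous but not whole in both replicates. At 3R:12064888-12085487, of 20600 bases, replicate 1 had 1 cluster of 16309 bases with a score of 1.07. Replicate 2 had 2 clusters there. Of these, 3R:12065708-12069770 had 4063 bases and a score of 1.82, and 3R:12071992-12083048 had 11057 bases and a score of 0.825. The higher-scoring and the broader part were thus separate regions in replicate 2 and a single region in replicate 1. The clusters of both replicates overlapped over 14088 bases, 68.4% of the domain.

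The other domains among the 10 widest, apart from the block on 3L, were joined, and 5 of them lay on X. At X:2186088-2202658, of 16571 bases, replicate 1 had 3 clusters of 2349, 3955 and 2836 bases and replicate 2 had 5 clusters of 1705 to 2274 bases. No single cluster covered more than 23.9% of this domain. At X:19380051-19393872, of 13822 bases, replicate 1 had 5 clusters and replicate 2 had 3, and the widest covered 19.8% and 19.7%. These were the 2 domains with the most replicate clusters, 8 each. At X:18540350-18553006, of 12657 bases, both replicates had 2 clusters but shared bases only at the left end. There the clusters of replicates 1 and 2 overlapped over 2212 bases, while replicate 1 had its other cluster at the right end and replicate 2 had its own in the middle. At X:1972575-1985013, of 12439 bases, 2951 bases were shared, at a cluster with scores of 1.13 and 0.918. Replicate 1 alone had a further cluster on the right, of 1866 bases. The X domain at X:1856543-1868183, of 11641 bases, had 2 clusters in each replicate.

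Among the 10 widest, the 3 joined domains on autosomes were covered to 69.8 to 93.7% per replicate and the 5 on X to 28.0 to 72.2%. This contrast depends on the cut at 10. The joined domain 3L:6733294-6744456, of 11163 bases and just outside it, was covered to 40.5% and 56.4%, within the range on X. At 2L:11999661-12013392, of 13732 bases, clusters covered 79.0% in replicate 1 and 93.7% in replicate 2. Both replicates broke the domain at the same place. The gap was 2L:12008673-12008966 in replicate 1, of 294 bases, and 2L:12008680-12008969 in replicate 2, of 290 bases. On either side the scores were high, at 1.58 and 1.25 in replicate 1 and 1.39 and 1.40 in replicate 2. At 3L:631930-646048, of 14119 bases, each replicate had 3 clusters, and they covered 69.8% and 78.2%. At 2R:17585701-17598073, of 12373 bases, each replicate also had 3, with 76.8% and 88.2%. The middle cluster was the widest and the highest in both replicates, with scores of 0.817 and 0.867. The domain 3R:6206862-6216845, of 9984 bases, also had 3 clusters in each replicate, and was covered to 56.9% and 79.1%.

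**Figure D3:**
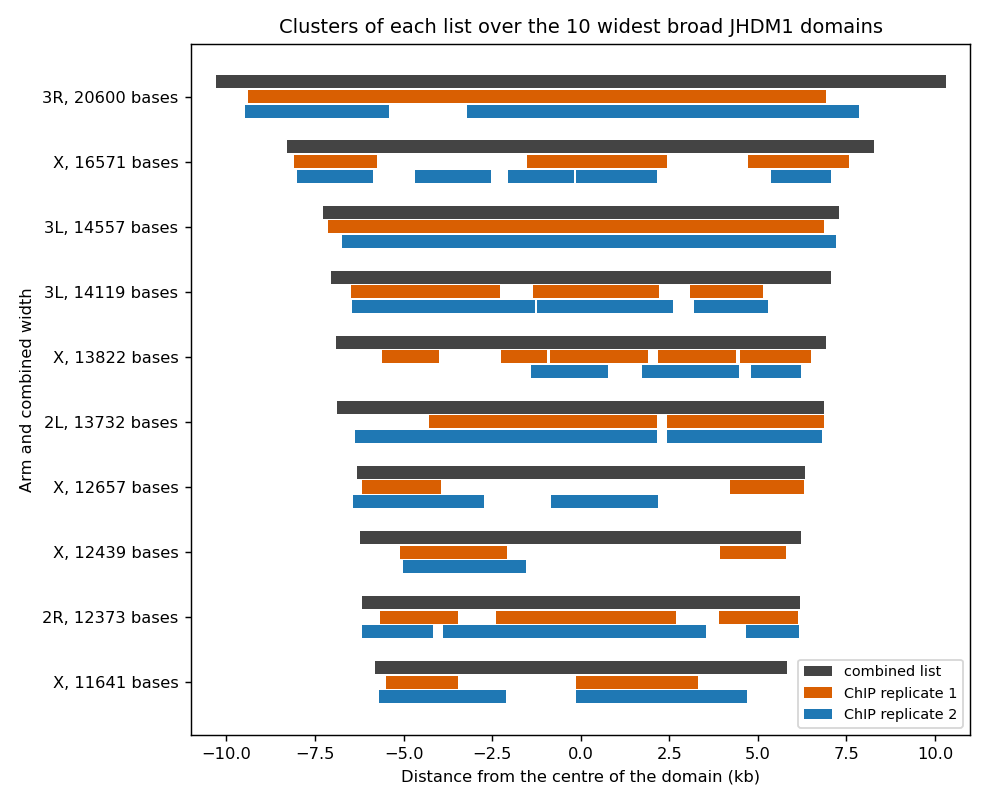
The 10 widest domains are drawn to scale around their centres (x axis, kb), each with the combined cluster in grey, the clusters of ChIP replicate 1 in orange and those of ChIP replicate 2 in blue. In the domains of 20600 and 14557 bases most bases lie under long clusters. The 5 domains on X hold separate clusters with open stretches between them, and 28.0 to 72.2% of their bases are covered per replicate.

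The number of clusters was often the same in both replicates, mostly where each had 1. Of the 313 domains found in both, 195 overlapped equal numbers of clusters. These were 127 domains with 1 cluster in each list, 61 with 2 and 7 with 3. The other 118 had unequal numbers. Where a replicate had 2 or more clusters, unequal numbers were thus more common than equal ones. Of the 159 joined domains, 68 had 2 or more clusters in both replicates, 47 in replicate 1 only and 44 in replicate 2 only. Gaps between neighbouring clusters inside a domain numbered 148 in replicate 1, with a median of 683 bases, and 154 in replicate 2, with a median of 545 bases. The widest had 8154 bases in replicate 1 and 4350 bases in replicate 2. Gaps under 500 bases made up 63 of the 148 and 73 of the 154, and in 1 case of replicate 2 the clusters abutted with no base between them.

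The other replicate wholly bridged a minority of such gaps. Of the 148 gaps of replicate 1, 45 were wholly covered by clusters of replicate 2, 67 partly and 36 not at all. Of the 153 gaps of replicate 2 that had at least 1 base, 52 were wholly covered by replicate 1, 68 partly and 33 not at all. In 63 cases a gap of one replicate overlapped a gap of the other, in 58 domains, of which 52 were joined. The clusters of both replicates laid over each other formed 1 unbroken stretch in 44 of the 159 joined domains and 2 or more stretches in 115. In 14 there were 3 or more.

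Cover was highest in the middle of continuous domains and had a dip there in joined ones. In 20 equal bins from the left to the right edge, cover of continuous domains reached 100% in replicate 1 and 99.5% in replicate 2 in the tenth bin. A cluster over at least 50% of a domain must take in its centre, so that height follows from the definition. In joined domains the same bin was covered to 64.6% and 65.0%. Such domains hold 2 or more clusters of at least 1 replicate by definition. Gaps away from the edges, and with them a lower middle, are therefore largely built in too. The fifth bin of joined domains was covered to 74.3% and 72.2%, and the fifteenth to 68.1% and 74.2%. In replicate 1 the height on the right was only slightly above the middle. In all 3 classes cover was lowest in the bins at the edges, with 32.6% and 32.9% in the first bin of joined domains and 46.4% and 40.6% in that of continuous ones.

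**Figure D4:**
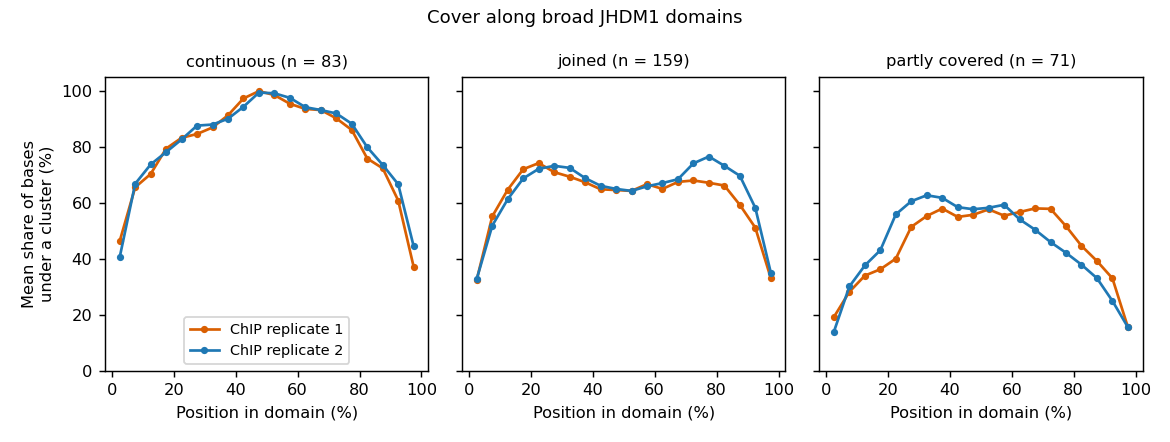
Mean share of bases (%) under a cluster of ChIP replicate 1 (orange) or ChIP replicate 2 (blue) along the domains, in 20 equal bins from the left edge (0%) to the right edge (100%), for continuous, joined and partly covered domains. Continuous domains peak at the centre, while joined domains have 64.6% and 65.0% in the tenth bin and more on the left of it.

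Continuous domains had the highest scores. The authors gave each region 1 score, of unstated scale, which was compared within a list. The median combined score was 0.790 in continuous domains (range 0.482 to 2.22), 0.554 in joined ones (0.319 to 1.65) and 0.512 in partly covered ones (0.395 to 1.20). It was 0.418 in the 25 domains found in 1 replicate and 0.432 in the 4 found in neither, close to the 0.434 of all combined clusters on the arms. The ranges of all classes overlapped. The highest replicate cluster in a domain followed the same order, with medians of 0.901 in continuous, 0.708 in joined and 0.634 in partly covered domains in replicate 1. In replicate 2 these were 0.893, 0.728 and 0.666. Across the 313 domains found in both, the highest scores had a Spearman's rho of 0.75 and a Pearson's r of 0.83 between the replicates. Across all 342, the covered shares had a rho of 0.47 and an r of 0.47. These correlations are over regions of the same pair of samples and are given as descriptions. Width and combined score were only weakly related, with a rho of 0.29 over the 342 domains.

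The 5 domains with the highest combined scores had 5674 to 6455 bases, against a median of 5921.5 over all domains. After 2R:15612135-15617808, with 2.50 in replicate 1 and 1.86 in replicate 2, came 3R:13440588-13447042, of 6455 bases, with 2.29 and 1.86. The block at 3R:2643985-2649785 scored 2.07 and 1.61. At 2R:12105907-12111706, of 5800 bases, the replicates scored 1.94 and 1.35. The joined domain 3R:17677655-17683534, of 5880 bases and with a combined score of 1.65, was made of unequal parts. Its right part scored 2.28 and 2.25 in the replicates, and its left part 0.466 and 0.790. The gap between the parts was narrow, and together the replicates left no base open between them.

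**Figure D5:**
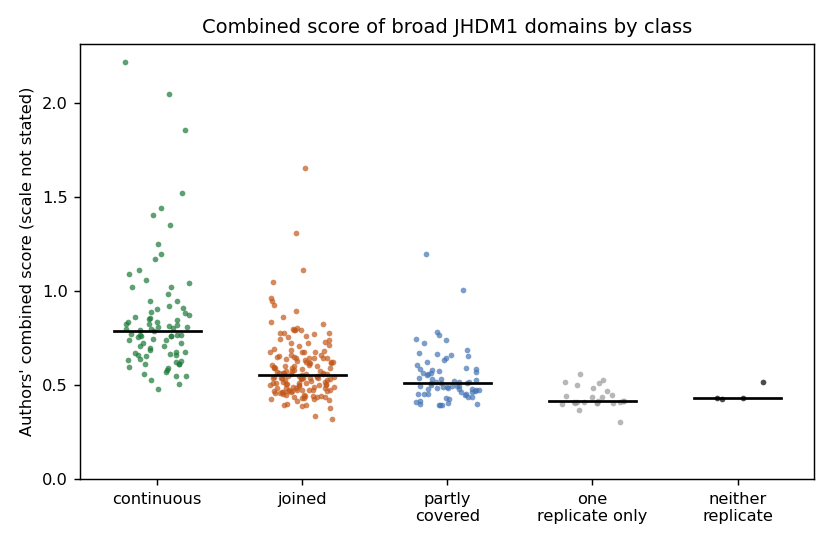
Each point is the authors' combined score (y axis, scale not stated) of 1 domain, grouped by class along the x axis, with black lines at the medians. The median is 0.790 for continuous and 0.554 for joined domains, and the ranges overlap.

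The 4 domains found in neither replicate were of modest width and score. They lay at 2R:8403178-8408693, X:20270126-20275584, 2R:14706914-14712027 and 2R:7507637-7512640. Their widths were 5516, 5459, 5114 and 5004 bases, and their combined scores 0.433, 0.516, 0.426 and 0.432. None of the 58 domains of 7500 bases or more was missing from either replicate.

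Broad domains were spread over the 5 large arms. Arm 2R had 90, or 4.26 per Mb, and they were 3.80% of its combined clusters. Arm 3R had 87 (3.12 per Mb, 3.08% of its clusters) and X had 67 (2.99 per Mb, 3.24%). Arms 3L and 2L had 52 and 46, or 2.12 and 2.00 per Mb, and 2.33% and 2.44% of their clusters. Chromosome 4 had none among its 34 combined clusters, and its widest cluster had 2931 bases. With 3 taken as the upper limit for a count of none, a share of up to 8.82% is allowed. That limit is approximate and treats clusters as independent. The X chromosome had the lowest share of continuous domains, 14.9% (10 of 67), against 24.1 to 30.4% on the other large arms. It also had the highest share of joined ones, 55.2%, against 40.4 to 50.0%. The median combined score of its domains was also the highest of the arms, 0.623 against 0.544 to 0.573. No test was made of these differences between arms.

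Domains lay close to other clusters and, in places, to each other. The nearest combined cluster was at a median of 867 bases from a domain, against 962 bases for clusters of 3000 to under 5000 bases and 1548 bases for narrower ones. Another domain lay within 50 kb of 165 of the 342, and within 10 kb of 74. Over 124 bins of 1 Mb, the last of each arm being shorter, 22 bins held no domain and 25 held 5 or more. The bin with the most was X:1000001-2000000, with 14 domains among 143 clusters, or 9.79%. Of these, 3 were continuous, 8 were joined and 3 were partly covered. The next were 2R:8000001-9000000 and 2R:20000001-21000000, with 9 each. In the X bin, 3 domains followed each other closely at X:1351180-1357018, X:1357469-1365629 and X:1369232-1378478, of 5839, 8161 and 9247 bases. This group is named after its positions were seen. No gene is named for any of these regions, because the gene table used belongs to another release of the genome.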

How the data were processed

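JHDM1 binding was measured by ChIP-seq in 2 ChIP samples, with 2 inputs that were not analysed here. The submitters' processing notes name the aligner as Bowtie 0.12.7. The deposited lists give regions of significant enrichment on FlyBase release 5, per the file headers, each with 1 score whose scale the authors did not state. The caller, like its threshold and the making of the combined list, is not given in the sources used here. These steps decide where neighbouring regions are merged.

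Widths, overlaps of at least 1 base, covered shares and gaps were computed from the lists with Python 3.11.15, NumPy 2.4.6 and pandas 2.3.3, and plots were drawn with Matplotlib 3.10.9. Coordinates are counted from 1. The overlap computation was checked on 200 simulated domains of known position. Cluster counts, covered shares, shared bases and the continuous label came out as planted in all 200. All simulated clusters lay inside their domain, so clipping at domain edges was not tried. The other classes and the gaps were not checked either. The domains and classes were chosen with earlier results of these data known. Since the domains were chosen by width in a list made from the same samples, no test was run. The regions named were the 10 widest, the widest of each arm, the 5 with the highest combined score, the 5 most continuous, the 5 with most replicate clusters (ties going to the wider domain), those found in neither replicate, and 3 on each side of the width limit. Alternatives changed the width limit, overlap, cover and score minimum, joined clusters closer than 500 bases, and left out each replicate.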

Additional observations from a re-analysis of the deposited data

Results flagged for a closer look

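Wide clusters were also found off the 6 arms, on sequences that the report leaves out. There were 7 clusters of 5000 bases or more among the 186 combined clusters there, all on U, the scaffolds with no place on a chromosome. They are given because they are a signal in data outside the comparisons, and the inputs have no list here to give a background. All 7 were continuous by the same definition, with widths from 5181 to 28166 bases and a median combined score of 1.63, against 24.3% continuous and a median of 0.568 among the domains on the arms. The widest, U:1987276-2015441, was covered to 98.3% and 98.1% by 1 cluster in each replicate. The difference from the arms was not tested, nor was the part played by repeated sequence.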

How the results depend on the processing

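Over 7 results, 48 alternative values were computed, of which 29 moved. For counts this means by more than 1.5 times, and for the mean cover by more than the SD between replicates. The shared part has no spread between replicates, and its 6 values count as moved when outside the binomial interval over bases, which is very narrow. With a width limit of 4000 bases there were 731 domains, of which 639 were found in both replicates, 225 continuous, 239 joined and 13 in neither, and 45.4% of bases were shared. With 7500 bases there were 58, with 58, 13, 42 and 0, a mean cover of 65.0% and a shared part of 53.0%. The joined share of domains was 32.7%, 46.5% and 72.4% at limits of 4000, 5000 and 7500 bases, and a wider region has more room for several clusters. Fewer or more regions enter by construction. Requiring 1 cluster over at least 80% left 17 continuous domains. Joining replicate clusters closer than 500 bases lowered the joined domains to 104 and gave a shared part of 47.2%, and continuous domains rose to 117, so that they outnumbered the joined ones. Keeping only the replicate clusters that scored above their list's median gave 58 joined domains, 50 in neither, a mean cover of 44.6% and a shared part of 32.2%. Continuous domains, at 78, then also outnumbered the joined ones. Leaving out 1 replicate gave 133 to 145 continuous domains, 96 to 106 joined ones, 13 to 20 without a cluster, 322 to 329 with one, a mean cover of 59.2 to 61.0% and a covered part of 60.1 to 62.0%. The lists of single replicates held 43 to 47 regions of this width. The cause of these changes was not tested beyond what each setting's construction fixes. No paired analysis was possible because the shared numbers would set ChIP samples against inputs, and no regions of the inputs are at hand. With the read depth unknown, its limit on gaps cannot be given.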
